A study of Homo sapiens with 6 samples.

Results

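PML, SP100, SP110, SP140, SP140L and DAXX encode the scaffold, the SP100 family and a histone chaperone of the PML nuclear body. The 6 genes were taken by symbol from the deposited count table, which lists 60498 genes. Genes were analysed where their counts averaged 10 or more, which held for 15126 genes and for all 6 of these. RNA was sequenced from SKOV3, an established ovarian cancer cell line whose parent cells carry 1 WT and 1 HAQ haplotype of STING1, the sensor of cyclic dinucleotides. The parent (WT/HAQ) was compared with a clone that kept only its WT allele (WT/-) and a clone that kept only its HAQ allele (HAQ/-), both made by disrupting the other allele with paired CRISPR/Cas9 guides. Each line gave a control library and a library from cells that received 2'3'-cGAMP at 10 μg/mL for 30 min, in a buffer that made the membrane permeable with digitonin, and then rested for 4 h. How the control cells were handled is not described in the sources used here. Each edited line was a single clone grown out by limiting dilution, so that haplotype and clone cannot be told apart, and no line and treatment had a replicate library.

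PML nuclear bodies are small spheres in the nucleus that are built by PML, a protein of the TRIM family that becomes modified with SUMO and gathers partner proteins. SP100 is a second constant resident of these bodies, and its relatives SP110, SP140 and SP140L share with it an N-terminal multimerisation region and chromatin-reading domains. DAXX is brought to the bodies through SUMO and delivers the histone variant H3.3 together with ATRX. PML and SP100 are textbook interferon-stimulated genes, and SP140 is known mainly from lymphoid and myeloid cells. The comparison of treated with control cells addresses how these genes respond when STING1 is engaged, and the lines were made to set the haplotypes side by side, within the limit of 1 clone each.

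The 6 libraries held between 12444822 and 17608467 counts after rounding, and between 21193 and 21992 genes had a count. Levels are given as normalized counts, which are counts scaled to a common library size by the TMM method. The targeted gene, STING1, had 669.1 (WT/HAQ), 352.8 (WT/-) and 212.9 (HAQ/-) normalized counts in the control libraries and 1780, 552.9 and 402.8 in the matching cGAMP libraries. These counts per gene do not separate its alleles and therefore do not check the edit. The 8 markers of ovarian and epithelial cells summed to between 54894 and 127488 counts per library. Among them, KRT19 was far lower in both clones than in the parent. Its control libraries had 5629 (WT/HAQ), 364.0 (WT/-) and 413.5 (HAQ/-) normalized counts. The part of this difference in the comparisons between lines was not tested. Of 12 lymphoid and myeloid markers, 8 had 3 counts or fewer in each library, among them PTPRC, CD3E, LYZ and SPI1. The 12 markers summed to between 479 and 940 counts, and the 6 endothelial and fibroblast markers to between 1062 and 1351. Some of these markers differed between the control and the cGAMP library of a line. CD68, a myeloid marker that is not limited to those cells, had log2 folds of 0.71 (WT/HAQ), 0.60 (WT/-) and 0.30 (HAQ/-). CIITA, the interferon-inducible regulator of HLA class II, went from 17.7 to 182.5 normalized counts in WT/HAQ, from 27.1 to 98.8 in WT/- and from 45.4 to 37.2 in HAQ/-. COL3A1 went from 0 to 51 counts in WT/HAQ, from 1 to 0 in WT/- and from 1 to 41 in HAQ/-. Among the epithelial markers, PAX8 had log2 folds of -1.78, -0.92 and -0.49 in the same order of lines. KRT7 went from 11666 to 5827 normalized counts in WT/HAQ, from 7879 to 4973 in WT/- and from 3590 to 2788 in HAQ/-, and CLDN4 from 299.6 to 603.6, from 299.6 to 848.1 and from 164.9 to 225.5. The adjusted p in edgeR was between 0.0644 (KRT7) and 0.215 (CIITA) for these 6 genes, and their part in the results was not tested.

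SP110 (ENSG00000135899), SP140 (ENSG00000079263), SP140L (ENSG00000185404) and SP100 (ENSG00000067066) lie next to each other on chromosome 2. In GRCh38 with GENCODE release 44, SP110 spans chr2:230165186-230225729 on the minus strand. SP140 spans chr2:230203110-230313215, SP140L chr2:230327184-230403732 and SP100 chr2:230415942-230545606, all on the plus strand. SP110 and SP140 overlap over 22620 bases on opposite strands, of which 170 are exonic in both. SP110 also shares 1898 of its 10685 exonic bases with a lncRNA on the opposite strand (ENSG00000225963), and SP100 shares 117 with another (ENSG00000235419). Whether strand was used in counting is not stated, so reads from such bases cannot be assigned to either gene with certainty. On its own strand, SP100 shares 544 exonic bases with the pseudogene HMGB1P3. PML (ENSG00000140464) spans chr15:73994673-74047827 on the plus strand, and DAXX (ENSG00000204209) spans chr6:33318558-33323016 on the minus strand. PML shares 586 exonic bases with a lncRNA on the opposite strand (ENSG00000287543), and DAXX shares 441 with ENSG00000285064 on its own strand. The deposited counts of the 4 SP genes were in part fractional, as RSEM gives them where reads fit several sequences, whereas those of PML and DAXX were whole numbers in each library.

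RefSeq windows from 250 bases before to 50 bases after the start site (GRCh38.p14) were at hand for the 4 SP genes, which have 6 such windows. The first window of SP110 and the window of SP140 share 199 bases, because their start sites (230225636 and 230225736) face away from each other. The first windows of SP140L and SP100 aligned with 251 identical bases of 272 (92.3%). The windows are therefore not independent of each other. They are shown around the run AAGTGAAA (reverse complement TTTCACTT), in capitals, which was found after the windows had been read and was in 5 of the 6 windows, from all 4 genes. The search took the longest runs held by the first window of each of the 4 genes, so presence in all 4 was set in advance. It gave 3 runs of 8 bases. The others were AGGAGGAG, in 5 of the 6 windows and 6.79% of all windows, and GGAAAAGA, in 4 of the 6 and 2.27%. AAGTGAAA, the rarest of the 3, was in 1.62% of 35116 RefSeq windows of this length. As the run was picked from these windows, this share does not measure an enrichment.
SP110 and SP140, shared, chr2:230225715-230225744, minus strand: gaggaaaagaaAAGTGAAAttgcctaacta
SP110, further start, chr2:230220017-230220046, plus strand: cgagaaaagaaAAGTGAAAgttttcggagt
SP140L, chr2:230327095-230327124, minus strand: ggggaaaagaaAAGTGAAAgtatttattta
SP100, chr2:230416126-230416155, minus strand: ggggaaaagagAAGTGAAAgtatttaacct

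In SP110 the run lies from -97 to -90 of its first start site and from -51 to -44 of its further start site, and the first of these stretches lies from -10 to -3 of the SP140 start site. In SP140L it lies from -87 to -80 and in SP100 from -64 to -57. The core of the interferon-stimulated response element was searched as GAAANNGAA (reverse complement TTCNNTTTC), which occurred in 8.11% of all windows and in 0 of the 6 windows of these genes. The gamma-activated sequence, TTCNNNGAA on either strand, occurred in 7.66% of all windows and in 1 of the 6, at the further start site of SP110 from -38 to -30. These are matches of letters within a window and carry no measurement of binding.

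PML, which encodes the scaffold of the body, was raised in each line. It had 2777 normalized counts in the WT/HAQ control library and 7319 with cGAMP. The WT/- pair had 5323 and 9413, and the HAQ/- pair had 2013 and 4484. Each cGAMP library was above the control library of its own line, but the WT/- control library was above the HAQ/- cGAMP library (ratio 1.19, 95% counting interval 1.14 to 1.24), so that the control and cGAMP values overlap between lines. The fold was 2.64 in WT/HAQ (2.53 to 2.75), 1.77 in WT/- (1.71 to 1.83) and 2.23 in HAQ/- (2.12 to 2.34). The line with the highest control level had the smallest fold. These intervals are 95% Wilson intervals on the 2 counts and cover counting error only, without the spread between cultures. As the RNA came from whole cultures, more cells with a transcript and more transcript per cell cannot be told apart.

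SP100 encodes the protein after which the family is named, an autoantigen in primary biliary cholangitis. It had 600.2 normalized counts in the WT/HAQ control library and 1790 with cGAMP. The WT/- pair had 804.4 and 2092, and the HAQ/- pair had 555.7 and 1219. All 3 cGAMP libraries were above all 3 control libraries. The fold was 2.98 in WT/HAQ (2.73 to 3.26), 2.6 in WT/- (2.39 to 2.83) and 2.19 in HAQ/- (1.99 to 2.42).

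SP110, an interferon-inducible family member whose loss causes an immunodeficiency with hepatic veno-occlusive disease, had the largest fold of the 6 genes in each line. Its normalized counts were 107.0 in control and 912.5 in cGAMP cells of WT/HAQ, 175.4 and 1166 for the WT/- clone, and 98.6 and 653.5 for the HAQ/- clone. The lowest cGAMP library was thus far above the highest control library. The fold was 8.53 in WT/HAQ (7.06 to 10.3), 6.65 in WT/- (5.68 to 7.78) and 6.63 in HAQ/- (5.42 to 8.1). Among all genes with a fold, SP110 ranked 231 of 15114 in WT/HAQ, 228 of 15099 in WT/- and 70 of 15072 in HAQ/-. The WT/- and HAQ/- folds were almost equal, while the rank in HAQ/- was the highest of the 3 lines.

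SP140L, a close relative of SP100 and SP140, had 305.8 normalized counts in the WT/HAQ control library and 607.4 with cGAMP. The WT/- pair had 338.8 and 846.8, and the HAQ/- pair had 242.5 and 436.8. The cGAMP libraries were again all above the control libraries. The fold was 1.99 in WT/HAQ (1.74 to 2.26), 2.5 in WT/- (2.2 to 2.84) and 1.8 in HAQ/- (1.55 to 2.1), and SP140L was the single gene of the 4 raised genes with its largest fold in WT/-.

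SP140, the chromatin reader of lymphoid and myeloid cells, was counted few times in these carcinoma cells. It had 24 counts in the WT/HAQ control and 16 in the cGAMP library, 42 and 16 for WT/-, and 35 and 14 for HAQ/-. The normalized counts were 21.2 and 15.2, 39.2 and 21.4, and 30.5 and 15.3 in the same order, so that the cGAMP library was the lower of each pair while the groups overlapped at 21.2 (control, WT/HAQ) and 21.4 (cGAMP, WT/-). The fold was 0.717 in WT/HAQ (0.385 to 1.34), 0.545 in WT/- (0.309 to 0.962) and 0.502 in HAQ/- (0.273 to 0.924). SP140 and SP110 thus had folds on opposite sides of 1 in each line, but the WT/HAQ interval of SP140 includes 1. Their windows share 199 bases at the first start site of SP110 and none at its further start site. The canonical SP110 transcript starts at the further site (230219984), and the start sites in use were not measured.

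DAXX encodes a chaperone of H3.3 that is also a transcriptional corepressor. Its normalized counts were 851.2 and 657.7 in WT/HAQ, 881.0 and 820.1 for WT/-, and 834.0 and 827.6 for HAQ/-, control first. The 3 control libraries lay within 834.0 to 881.0, and the WT/HAQ cGAMP library was the lowest of the 6. The fold was 0.773 in WT/HAQ (0.701 to 0.852), 0.931 in WT/- (0.841 to 1.03) and 0.992 in HAQ/- (0.902 to 1.09). Only the WT/HAQ interval lay below 1.

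**Figure D1:**
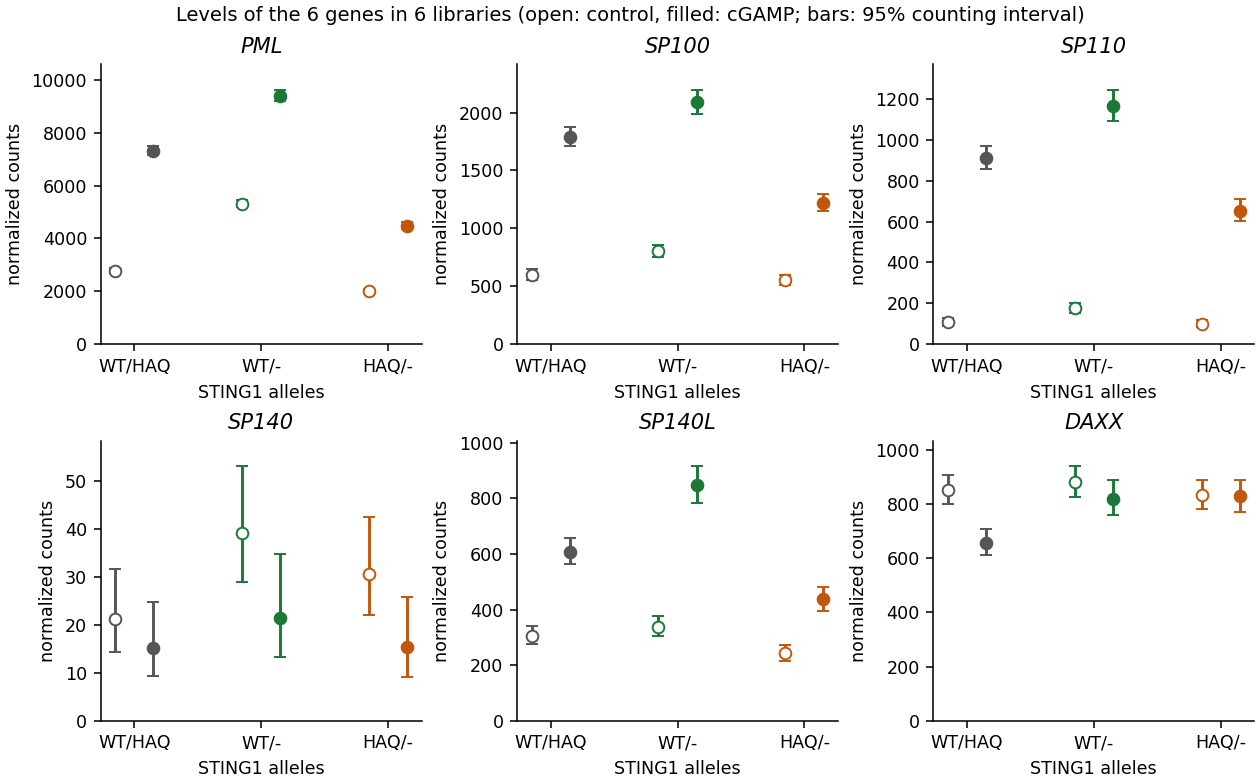
Normalized counts (vertical axis, linear from 0) of the 6 genes in each line (horizontal axis), with open points for control and filled points for cGAMP libraries, 1 library each, and bars for the 95% counting interval. PML, SP100, SP110 and SP140L lie higher with cGAMP in each line, SP140 lies at or under 39.2 in each library, and DAXX stays between 657.7 and 881.0.

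PML, SP100, SP110 and SP140L were raised at least 1.5-fold in each line. The 4 raised of 6 genes compare with 12.9% of all genes raised (WT/HAQ), 11.9% (WT/-) and 6.77% (HAQ/-). All 4 genes were raised in all 3 lines together, a pattern shown by 3.11% of genes. SP140 was lowered at least 1.5-fold in WT/- and HAQ/- and no gene of the 6 in WT/HAQ, where the shares of all genes lowered were 8.79%, 5.79% and 12.3%, respectively. The median log2 fold of the 6 genes was 1.19 (WT/HAQ), 1.07 (WT/-) and 0.99 (HAQ/-), against -0.01, -0.00 and -0.01 over all genes.

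**Figure D2:**
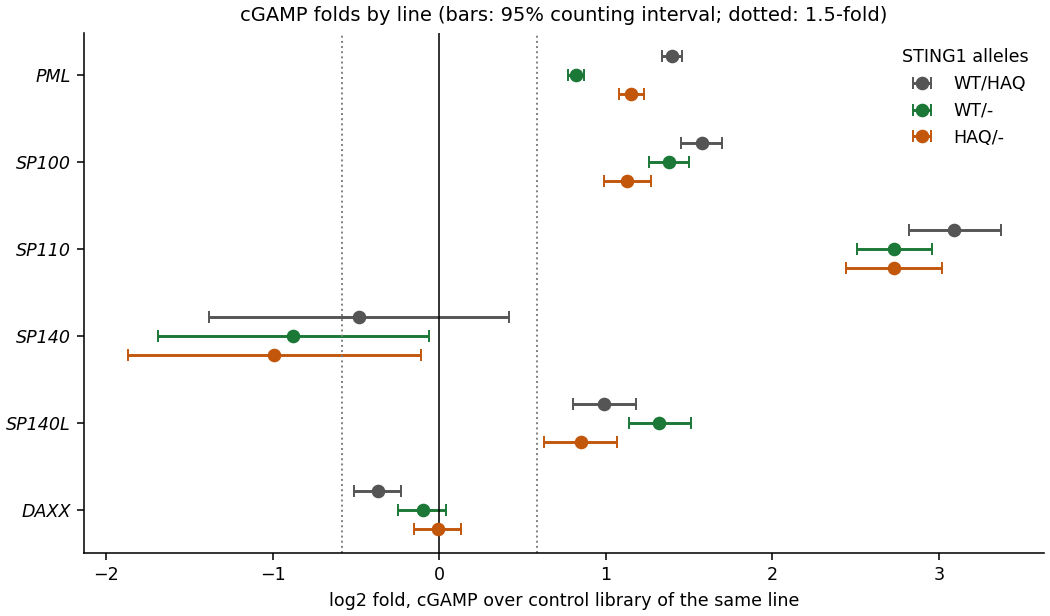
log2 fold of the cGAMP over the control library of the same line (horizontal axis) for each gene (vertical axis), with 1 point per line, bars for the 95% counting interval and dotted lines at 1.5-fold in either direction. The points of PML, SP100, SP110 and SP140L lie beyond the upper dotted line in all 3 lines, from 0.82 for PML in WT/- to 3.09 for SP110 in WT/HAQ.

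The treatment was tested over the lines in edgeR by the quasi-likelihood F test, with the line as a term, 2 residual degrees of freedom and Benjamini-Hochberg adjustment over 15126 genes. With cGAMP, 2.27% of genes passed an adjusted p of 0.05 as higher and 0.959% as lower. Of the 6 genes, 4 passed as higher and 0 as lower in edgeR, and DESeq2 gave the same numbers. DESeq2 called 5.10% of all genes higher and 3.85% lower. At an unadjusted p of 0.05, edgeR had 11.6% of all genes higher and 13.6% lower, and of the 6 genes 4 higher and 1 lower. The 1 lower gene, SP140, is near the share of all genes called lower in this way. SP110 rose by a log2 fold change of 2.85 (SE 0.11, adjusted p = 0.00261 in edgeR) and ranked 5 of all genes by p. SP100 rose by 1.36 (SE 0.10, adjusted p = 0.00812 in edgeR), PML by 1.12 (SE 0.12, adjusted p = 0.018) and SP140L by 1.06 (SE 0.11, adjusted p = 0.018). For SP140 the log2 fold change was -0.78 (SE 0.27, adjusted p = 0.161 in edgeR), with lower values in 3 of 3 lines. For DAXX it was -0.16 (SE 0.09, adjusted p = 0.35 in edgeR), with the HAQ/- fold (-0.01) equal to the median of all genes and at 0.00 to 0.04 with DESeq2 size factors or thinned libraries. The p-values measure the spread of the response between 3 lines of different genotype. Without WT/-, no gene passed in edgeR (949 higher and 939 lower at an unadjusted p of 0.05), and the adjusted p was 0.11 for SP110, 0.139 for PML, 0.212 for SP100 and 0.213 for SP140L.

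The folds were then compared between lines, as differences of log2 folds with 95% counting intervals and without a test. PML had a larger fold in HAQ/- than in WT/- (WT/- minus HAQ/- -0.33, from -0.42 to -0.24) and a larger one in WT/HAQ than in either clone (0.24, from 0.15 to 0.34, above HAQ/-, and 0.58, from 0.50 to 0.65, above WT/-). SP100 had a larger fold in WT/- than in HAQ/- (0.24, from 0.06 to 0.43). For SP110 the same difference was 0.00 (-0.36 to 0.37). For SP140L it was 0.47 (0.18 to 0.76). The 4 raised genes thus differed in which clone had the larger fold, with PML and SP140L at the ends. Among the same differences of all genes, they lay at percentiles 16.4 (PML), 48.5 (SP110), 74.6 (SP100) and 85.1 (SP140L). Differences of this size between the clones were therefore common among all genes. SP140 gave 0.12 with an interval from -1.10 to 1.34, in which a difference was not detectable at this depth, and DAXX gave -0.09 (-0.29 to 0.11).

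Differences were also counted from log2 of 1.5, which the difference of PML between WT/HAQ and WT/- (0.58) missed narrowly. The counts were 0 of 6 for WT/- above HAQ/- (12.0% of all genes), 0 for WT/HAQ above HAQ/- (12.5%) and 0 for WT/HAQ above WT/- (8.60%). With DESeq2 size factors, with total counts only or with genes averaging 1 count or more, the PML difference was 0.61, which makes the last count 1 of 6. Against WT/-, the difference in WT/HAQ was 0.20 for SP100 (0.02 to 0.37) and 0.36 for SP110 (0.01 to 0.72), and it was negative for SP140L at -0.33 (-0.60 to -0.07) and for DAXX at -0.27 (-0.47 to -0.07). Against HAQ/-, the difference in WT/HAQ was 0.44 for SP100 (0.25 to 0.63), 0.36 for SP110 (-0.03 to 0.76), 0.14 for SP140L (-0.15 to 0.43) and -0.36 for DAXX (-0.56 to -0.16). These comparisons share libraries, and with 1 library per condition they have no replicate check.

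Among the control libraries, the largest ratio between the clones was that of PML. The control level of PML was 2.64 times higher in WT/- than in HAQ/- (2.52 to 2.77), 1.92 times higher in WT/- than in WT/HAQ (1.84 to 2) and 1.38 times higher in WT/HAQ than in HAQ/- (1.31 to 1.46). SP110 was 1.78 times higher in the WT/- than in the HAQ/- control library (1.41 to 2.25), SP100 1.45 times (1.31 to 1.6) and SP140L 1.4 times (1.2 to 1.63). For SP140 this ratio was 1.28 (0.823 to 2) and for DAXX 1.06 (0.965 to 1.16). Against WT/HAQ, the WT/- control library was 1.34 times higher for SP100 (1.21 to 1.48) and 1.64 times for SP110 (1.31 to 2.06), while the ratio was 1.11 for SP140L (0.956 to 1.28) and 1.03 for DAXX (0.946 to 1.13). PML, SP100 and SP110 were thus higher in the WT/- control library than in both others beyond their counting intervals.

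At a ratio of at least 1.5, PML and SP110 were higher in the WT/- than in the HAQ/- control library, as were 15.3% of all genes. PML, SP110 and SP140 were higher in WT/- than in WT/HAQ (13.0% of genes), and 0 of the 6 in WT/HAQ than in HAQ/- (8.59%). After cGAMP, the WT/- library was still above the HAQ/- library by 2.1 times for PML (2.02 to 2.18), 1.72 for SP100 (1.59 to 1.85), 1.78 for SP110 (1.61 to 1.98) and 1.94 for SP140L (1.71 to 2.2). For DAXX the ratio was 0.991 (0.891 to 1.1). The level of the raised genes in treated cells was therefore ordered WT/-, WT/HAQ, HAQ/- for each of the 4 genes, whichever line had the largest fold.

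Levels of different genes were compared as TPM, for which counts are divided by the length of the canonical transcript and scaled to the same sum in each library. In the control libraries PML was the most abundant of the 6 transcripts, with 77.7 (WT/HAQ), 150.2 (WT/-) and 59.3 (HAQ/-). DAXX came next, with 51.8, 54.1 and 53.4. SP100 (17.2, 23.3 and 16.8) and SP140L (17.9, 20 and 15) were close to each other. SP110 followed with 2.69, 4.45 and 2.61, and SP140 with 1.02, 1.9 and 1.54. With cGAMP, PML reached 199.2, 250.9 and 130.8, SP110 22.3, 27.9 and 17.1, and SP140 0.71, 0.977 and 0.767. The order of the 6 genes changed in treated cells, where SP100 (50.1, 57.3 and 36.6) was above DAXX (39, 47.5 and 52.5) in WT/HAQ and WT/- but not in HAQ/-. SP140L was at 34.6, 47.3 and 26.7, close to DAXX in WT/-. Where 1 gene has several transcripts, 1 length stands for all of them.

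Ratios of counts within a library need no scaling between libraries. The ratio of PML to DAXX counts went from 3.26 to 11.1 in WT/HAQ, from 6.04 to 11.5 in WT/- and from 2.41 to 5.42 in HAQ/-, so that WT/HAQ and WT/- arrived at similar ratios from different controls. The ratio of SP110 to SP140 counts went from 5.04 to 60, from 4.48 to 54.6 and from 3.23 to 42.6 in the same lines. The ratio of SP100 to SP140L counts, the pair with the most alike windows among those that share no bases, went from 1.96 (1.72 to 2.23) to 2.95 (2.69 to 3.22) in WT/HAQ. It went from 2.37 (2.1 to 2.68) to 2.47 (2.25 to 2.71) in WT/- and from 2.29 (1.99 to 2.64) to 2.79 (2.49 to 3.13) in HAQ/-, and in both clones the intervals overlap. The ratio of PML to SP100 counts went from 4.63 (4.26 to 5.03) to 4.09 (3.89 to 4.3) in WT/HAQ, from 6.62 (6.16 to 7.11) to 4.5 (4.26 to 4.75) in WT/- and was 3.62 (3.32 to 3.96) and 3.68 (3.44 to 3.93) in HAQ/-.

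The genes around the body were described in lists. Of 18 genes of the SUMO pathway, which supplies the modifier that holds the body together, 0 passed the edgeR test in either direction (0 higher and 1 lower at an unadjusted p of 0.05, and 0 with DESeq2). Their median log2 fold was -0.07 (WT/HAQ), -0.10 (WT/-) and -0.05 (HAQ/-). SUMO2, a modifier of this pathway, had a log2 fold change of -0.01 (SE 0.07). A list of 9 genes held H3.3 genes, chaperone genes and also SETDB1 and MORC3. Of these 9, 0 passed as higher and 1 as lower, with the same numbers in DESeq2. The 1 gene was UBN1, a subunit of the HIRA chaperone complex, which fell by a log2 fold change of 0.46 (SE 0.08, adjusted p = 0.0484 in edgeR). ATRX, the partner of DAXX, had 0.06 (SE 0.07).

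Among the genes of 18 proteins found in PML bodies, 1 passed as higher and 0 as lower in edgeR (2 and 0 with DESeq2, 3 and 2 at an unadjusted p of 0.05 in edgeR). ISG20, an interferon-induced exonuclease, rose by 3.40 (SE 0.33, adjusted p = 0.0146 in edgeR), with 153.8 and 1725 normalized counts in WT/HAQ, 87.7 and 1659 for WT/-, and 105.6 and 578.0 for HAQ/-. RMI1, a subunit of the BLM helicase complex, had folds of 1.37, 1.30 and 0.22 on the log2 scale and did not pass (adjusted p = 0.0933 in edgeR). The list had a median of -0.03 in WT/HAQ and -0.07 in both clones. The chaperone list had medians of -0.05, 0.02 and -0.09 in the same order, and the median over all genes was given above as -0.01, -0.00 and -0.01.

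Of 13 genes of the interferon signal, 7 passed as higher and 1 as lower, and the median log2 fold was 1.41 (WT/HAQ), 0.65 (WT/-) and 0.92 (HAQ/-). IFNB1, the cytokine, had 5, 2 and 6 counts in the control and 1325, 1934 and 15 in the cGAMP libraries of WT/HAQ, WT/- and HAQ/-. The HAQ/- clone thus had few IFNB1 counts in a library in which SP110, SP100 and PML were raised. STAT2, IRF7 and IRF9, which act downstream of the interferon receptor, rose by 2.54 (SE 0.28, adjusted p = 0.0189), 2.50 (SE 0.17, adjusted p = 0.007) and 2.16 (SE 0.28, adjusted p = 0.0297) in edgeR. IRF3 fell by 0.49 (SE 0.08, adjusted p = 0.0458 in edgeR).

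IRF1, a transcription factor of the same list that was singled out after its values were seen, had a control level with the same order as PML. Its normalized counts were 3252 (WT/HAQ), 10982 (WT/-) and 1307 (HAQ/-) control cells, and 9248, 18074 and 4292 with cGAMP. Its log2 folds of 1.51, 0.72 and 1.72 were smallest in WT/-, as were those of PML. IRF9, also singled out, had 188.3, 545.0 and 190.2 in the control libraries. The part of either gene in the PML level was not tested.

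**Figure D3:**
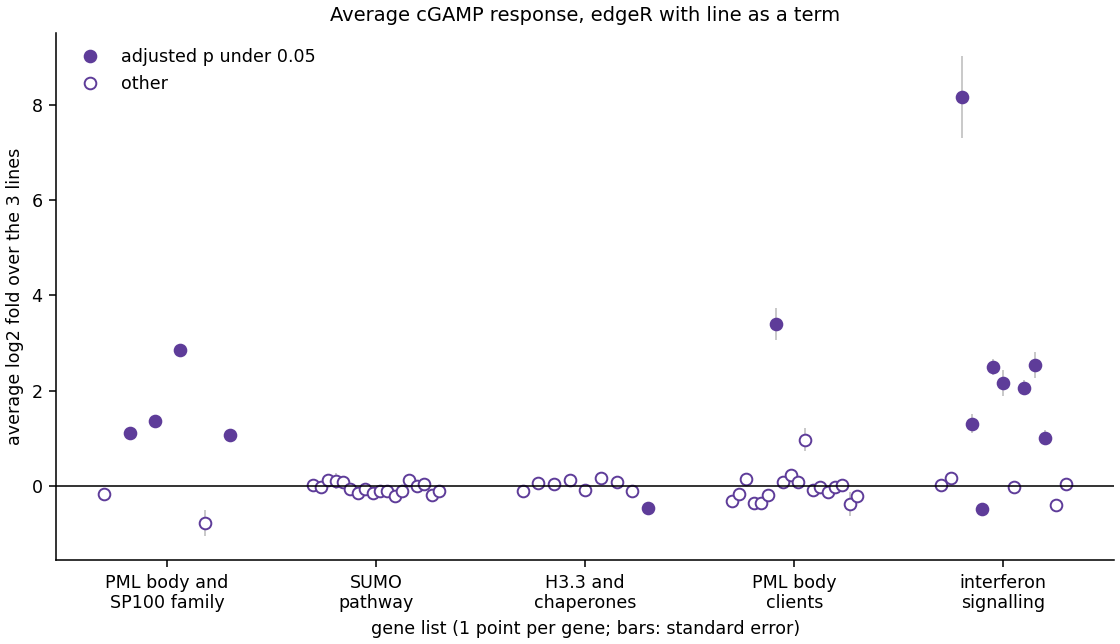
Average log2 fold over the 3 lines from edgeR (vertical axis) for each gene of 5 lists (horizontal axis), with filled points for an adjusted p under 0.05 and bars for the standard error. The SUMO, H3.3 and client lists hold 1 filled point above 0 (ISG20 at 3.40) and 1 below (UBN1 at -0.46), while 4 of the 6 genes and 7 of the 13 interferon signalling genes are filled above 0 and IRF3 is filled below 0 at -0.49.

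An interferon signature of 38 genes, taken from the study and holding SP110, gave a scale for these folds. In the edgeR test 35 of its genes passed as higher and 0 as lower. Its median log2 fold was 3.36 (WT/HAQ), 2.91 (WT/-) and 2.28 (HAQ/-). The log2 fold of SP110 (3.09, 2.73 and 2.73) was exceeded by 20, 19 and 15 of the signature genes, so that it lay near the middle of the signature in WT/HAQ and WT/- and in its upper part in HAQ/-. SP100 (1.58, 1.38 and 1.13) was exceeded by 30, 30 and 31 of them, and PML (1.40, 0.82 and 1.15) by 31, 37 and 31. SP140L (0.99, 1.32 and 0.85) was exceeded by 34, 30 and 31. The raised genes other than SP110 therefore lay in the lower part of the signature in each line.

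The genes within 1 Mb on either side were taken from the annotation to see whether the neighbourhood moved with the members. Around the SP cluster, 11 of 16 protein-coding neighbours were analysed, and 0 passed the edgeR test in either direction (3 higher and 0 lower at an unadjusted p of 0.05, where 11.6% and 13.6% of all genes passed, and 0 with DESeq2), with a median log2 fold change of -0.00 (range -0.20 to 1.11). FBXO36 and CAB39, the nearest analysed genes before and after the cluster, had 0.46 (SE 0.29) and -0.10 (SE 0.10). The gene at 1.11, B3GNT7, is a low-count glycosyltransferase gene with 29.2 and 87.4 normalized counts in WT/HAQ, 16.8 and 17.4 for WT/-, and 20.9 and 52.5 for HAQ/- (adjusted p = 0.139 in edgeR). Among the analysed protein-coding genes of this interval, SP110, SP140L and SP100 were thus the 3 that passed.

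Around PML, 21 of 33 neighbours were analysed, of which 1 passed as higher and 1 as lower in edgeR (4 and 1 with DESeq2, 5 and 3 at an unadjusted p of 0.05 in edgeR). STOML1 (ENSG00000067221), which encodes a stomatin-like membrane protein, lies 51 bases from PML and is transcribed away from it, on the minus strand. It had 427.8 and 676.8 normalized counts in WT/HAQ, 626.2 and 1471 for WT/-, and 304.5 and 533.1 for HAQ/-, and rose by 0.91 (SE 0.13, adjusted p = 0.0348 in edgeR). Its log2 folds of 0.66, 1.23 and 0.81 were largest in WT/-, where that of PML was smallest. The nearest analysed gene on the other side of PML was SEMA7A, a semaphorin gene 361462 bases away, at 0.43 (SE 0.08, adjusted p = 0.0658 in edgeR). ARID3B, a DNA-binding protein gene 493379 bases away, fell by 1.17 (SE 0.12, adjusted p = 0.0157 in edgeR).

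Around DAXX, which lies at the edge of the HLA class II region, 33 of 53 neighbours were analysed, with 3 higher and 0 lower in edgeR (4 and 1 with DESeq2, 7 and 8 at an unadjusted p of 0.05 in edgeR, against the same shares of all genes). The 3 genes were TAP1 at 2.15 (SE 0.22, adjusted p = 0.0158), PSMB9 at 1.37 (SE 0.14, adjusted p = 0.0174) and TAP2 at 1.18 (SE 0.10, adjusted p = 0.01) in edgeR, which encode the peptide transporter and an immunoproteasome subunit, between 458707 and 479819 bases from DAXX. On the side of lower coordinates, the adjacent ZBTB22 had -0.13 (SE 0.08), and TAPBP, 4274 bases away, had 0.32 (SE 0.07, adjusted p = 0.0848 in edgeR). On the other side, the nearest analysed gene was KIFC1, which encodes a mitotic kinesin, 68807 bases away, with log2 folds of -0.44, -0.44 and -0.22 and an average of -0.37 (SE 0.09, adjusted p = 0.0825 in edgeR).

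**Figure D4:**
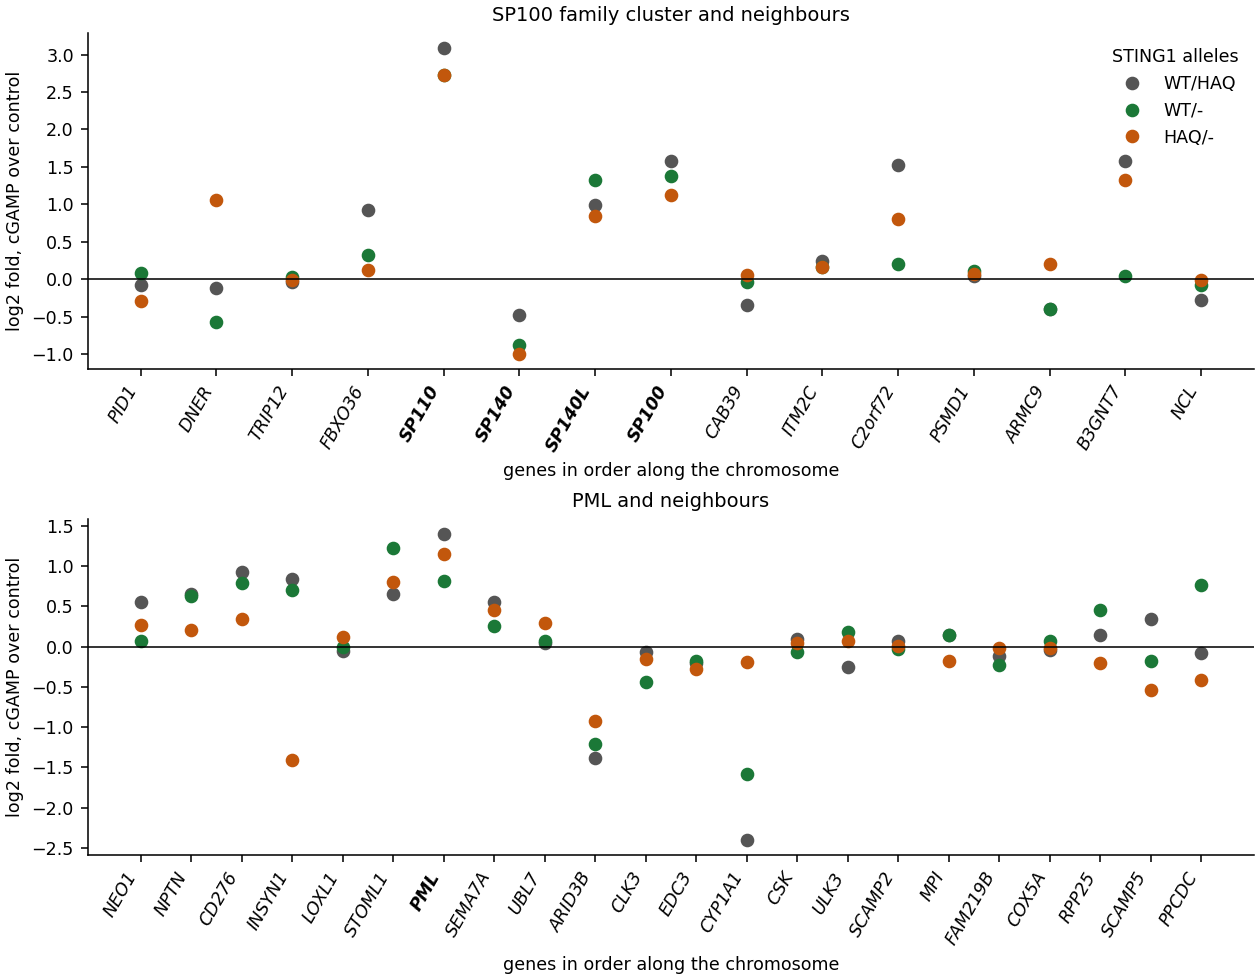
log2 fold of the cGAMP over the control library in each line (vertical axis) for the analysed protein-coding genes within 1 Mb of the SP cluster and of PML, in their order along the chromosome and not to scale (horizontal axis; members in bold, coinciding points hide each other). SP110, SP140L and SP100 stand above 0 in all 3 lines, SP140 below, and STOML1 next to PML stands above 0 in each line.

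The genes with the most similar response were found as the smallest Euclidean distance between the 3 log2 folds, over the 12080 genes that averaged 50 counts or more and had a fold in each line. This is a description over 3 points. For SP110 they were TRIM22 (3.01, 2.63 and 2.45, with WT/HAQ first and HAQ/- last), PARP9 and HES4, and for SP100 N4BP1 (1.45, 1.44 and 1.18), RNF122 and PSMB9. For SP140L they were LAPTM5 (0.82, 1.27 and 0.81), TRIM56 and CBR3. For PML they were PLXNA4 (1.21, 0.81 and 0.98), MSX1 and STING1 itself (1.41, 0.65 and 0.92). For DAXX they were STAT5A (-0.37, -0.10 and -0.03), TMEM43 and ATAD3B. SP140 had ZNF699 (-0.39, -1.07 and -0.92), MICB and ENSG00000277991. The distance of the nearest gene was 0.0211 for DAXX and 0.31 for SP110, the smallest and largest of the 6.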

How the data were processed

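RNA was measured by paired-end mRNA sequencing in 6 libraries, 1 for each line and treatment. The table that the authors deposited holds expected counts, which are estimated counts that were not normalized. The submitters' processing notes name STAR, RSEM and GRCh38 (hg38), while versions, annotation and strand setting are not given in the sources used here. Whole numbers made up 92.7% to 93.3% of each library's values. The rest were rounded, 0.5 upwards, and each column was matched to its condition by the labels (0 left over). A mean count of 10 or more was required. Library sizes were scaled by TMM (edgeR 4.0.16, R 4.3.3, factors from 0.9403 to 1.052) to the geometric mean of the effective sizes.

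For folds, counts under 3 were set to 3, and genes at 3 or fewer in both libraries had no fold. The treatment was tested with edgeR's quasi-likelihood F test, and DESeq2 1.42.0 was an alternative. Totals from 12444822 to 17608467 set the counting error, which the 95% Wilson intervals cover for single values (for differences of folds, a normal approximation on the 4 counts). Other alternatives were DESeq2 size factors, total counts only, thinning to the smallest total, a floor of 10 in place of 3, an added prior count of 2, a mean count from 1 or from 50, a fold of at least 2 or 1.2, no line term, and leaving out each line. Counts with their decimals and the runs shared by the promoter windows were added after seeing the data.

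Transcript lengths from GENCODE 44 were matched for 56434 of 60498 identifiers (14995 of 15126 analysed), and promoter windows from RefSeq for 4 of the 6 genes. The text names the 6 genes, the list genes past the threshold (at most 4 per direction), the 3 genes of nearest response and the neighbours on both sides, and other genes are values given beside these. The members and lists were chosen with earlier results of these data known. The steps were tested on simulated data. Python 3.11.15, pandas 2.3.3, scipy 1.17.1, Biopython 1.88 and matplotlib 3.10.9 were used.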

Additional observations from a re-analysis of the deposited data

How the results depend on the processing

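Under the alternatives, 140 log2 folds of single genes moved by less than their counting interval and 1 by more. With total counts only, the log2 fold of PML in WT/- was 0.76 in place of 0.82, and its log2 control ratio of WT/- over HAQ/- was 1.30 in place of 1.40. All 123 differences of log2 folds between lines moved by less than their counting interval, but that of PML between WT/HAQ and WT/- went from 0.58 to 0.61 with DESeq2 size factors, total counts only or a mean count of at least 1, past log2 of 1.5. That of SP110 between WT/- and HAQ/- was 0.00 and ranged from -0.05 to 0.01. With total counts only, the log2 control ratio of DAXX in WT/- over HAQ/- was -0.02 in place of 0.08. The 4 raised genes stayed 4 at 1.5-fold under the other scalings, floors and filters, and at 2-fold 3 genes passed per line, which were PML, SP100 and SP110 in WT/HAQ and HAQ/- but SP100, SP110 and SP140L in WT/- (7.38%, 3.12% and 6.58% of all genes in WT/HAQ, HAQ/- and WT/-). At 1.2-fold, 2 of the 6 genes were lowered in WT/HAQ, as were 26.6% of all genes. SP140 was no longer counted as lowered in WT/- and HAQ/- (0 genes each) with a mean count of at least 50, which leaves it out, or with a fold of at least 2.

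The treatment test depended on the design. It called 344 genes higher and 145 lower, against 772 and 583 with DESeq2, 581 and 424 with a mean count of at least 1, and 57 and 4 without the line term. When each line was left out in turn, the calls ranged from 0 to 1285 higher and from 0 to 1309 lower. Of the 6 genes, 4 were called higher, against 1 (SP110) without the line term and from 0 to 4 with a line left out, the 0 being without WT/-. SP140L also lost its call without WT/HAQ (adjusted p = 0.061 in edgeR). Over the 8 alternatives, the adjusted p of SP110 ranged from 8.49e-51 to 0.11, that of SP100 from 5.55e-16 to 0.212, that of PML from 5.38e-10 to 0.397 and that of SP140L from 3.07e-07 to 0.213. DAXX stayed above the threshold from 0.19 to 0.829 and SP140, under its 7 alternatives, from 0.165 to 0.543. The labels number no replicates, so that the line is the one pairing and there was no other block to fit. Depth limits SP140, with 14 to 42 counts, to fold intervals that each span more than a doubling.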
